A study of Mus musculus with 2 samples.

Results

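General synaptic vesicle and adhesion genes are 36 of the 32285 genes listed in the count tables of a single-cell study of mouse retina. They were chosen by symbol: SNARE proteins and their recycling factors (7 genes), priming and active zone genes (10), synaptotagmins (5), vesicle membrane and vesicle-bound proteins (7), and neurexins, neuroligins and scaffolds (7). The study compared Mettl14-cKO retina (Mettl14 fl/fl;Chx10-Egfp/Cre) with control retina (Mettl14 fl/fl or fl/wt), both at postnatal day 7 (P7), so floxed Mettl14 was carried by control mice too. The Chx10 promoter drives Cre in retinal progenitors and is known to be mosaic, and the labels do not say what share of cells recombined. Mettl14 encodes a subunit of the enzyme complex that writes N6-methyladenosine (m6A) on messenger RNA. Retinas were dissociated with papain, and 1 droplet library with the 10x Genomics 3′ kit v3.1 was made per genotype. How many animals a library pooled is not given, so every interval here covers counting error only and no difference between genotypes could be tested.

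At a chemical synapse, vesicles filled with transmitter dock at the active zone, are primed by Munc13 and RIM proteins, and fuse when SNARE proteins on the vesicle and on the plasma membrane zip together. Synaptotagmins sense the calcium that triggers fusion, complexins clamp and promote it, and NSF with SNAP proteins takes the used SNARE bundle apart. Neurexins on the presynaptic side bind neuroligins on the postsynaptic side, and scaffolds of the PSD-95 family hold receptors and adhesion proteins in place. In mouse retina the ribbon synapses of photoreceptors and bipolar cells are known to use syntaxin 3 and complexins 3 and 4 and to lack synapsins, whereas the conventional synapses of amacrine cells use syntaxin 1 and synapsins. The first postnatal weeks are the time when these synapses form.

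After barcodes with fewer than 1000 unique molecular identifiers (UMIs) were left out, 13502 Mettl14-cKO and 11426 control barcodes remained, with a median of 3212 UMIs per Mettl14-cKO barcode and 3487 per control barcode. Neurons were gated by marker genes: a barcode entered a class when at least 3 of that class's markers were present at 10% or more of their level in the 50 highest barcodes, and more than of any other class. The Mettl14-cKO gates held 2975 rod, 179 cone, 1101 bipolar, 1520 amacrine, 312 ganglion and 62 horizontal barcodes. The control gates held 4599 rod, 142 cone, 1626 bipolar, 1108 amacrine, 200 ganglion and 60 horizontal barcodes. Cells are called rods, bipolar cells and so on by their gate. The share of kept barcodes in the rod gate was 22.0% in Mettl14-cKO and 40.3% in control, so the libraries were compared within a gate and not as a whole. Within the gates the summed level of the gate's own markers also differed: rod markers summed to 12122 CPM (UMIs of a gene per 1000000 UMIs of the gate) in Mettl14-cKO against 17034 CPM in control rods, and bipolar markers to 3192 CPM in Mettl14-cKO against 5024 CPM in control bipolar cells. Rod markers in Müller glia, which should lack them, summed to 480 CPM in Mettl14-cKO and 696 CPM in control, with all 10 rod markers detected in both. The cone gate held rod markers at 7463 CPM in Mettl14-cKO and 11086 CPM in control. The horizontal gate held ganglion cell markers at 2684 CPM in Mettl14-cKO and 3227 CPM in control. The part that free RNA, doublets and these marker differences play in the ratios was not tested. The level of Mettl14 itself (GRCm38 chromosome 3, 123368297 to 123386108, minus strand) was 17.9 CPM in Mettl14-cKO against 34.7 CPM in control rods, 14.6 CPM in Mettl14-cKO against 23.9 CPM in control bipolar cells and 9.16 CPM in Mettl14-cKO against 16.8 CPM in control amacrine cells. The labels do not give the floxed exons, and a 3′ tag can be counted when they are gone.

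The 36 genes were spread over the gates in a cell-class pattern that both libraries shared. The gate with the highest CPM was the same in Mettl14-cKO and control for 31 of the 36 genes. Ganglion cells held the highest level of 17 genes in Mettl14-cKO and 14 in control, and amacrine cells that of 8 genes in Mettl14-cKO and 9 in control. Rods led for 4 genes in Mettl14-cKO and 6 in control, horizontal cells for 4 in each library, cones for 2 in each library and bipolar cells for 1 in each library. The intervals of the highest and the second gate overlapped for 12 of the 36 genes in Mettl14-cKO and 16 in control, among them 2 of the 4 rod-led genes in Mettl14-cKO and 5 of the 6 in control, so those leads were within counting error. The 3′ kit counts transcript ends, so a CPM value here does not scale with transcript length.

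Syntaxins were split between ribbon and conventional neurons. Stx3, the syntaxin of ribbon synapses, stood at 464 CPM in Mettl14-cKO and 577 CPM in control rods, and at 420 CPM in Mettl14-cKO and 567 CPM in control cones. It stood at 163 CPM in Mettl14-cKO and 218 CPM in control bipolar cells and at 52.9 CPM in Mettl14-cKO and 61.1 CPM in control amacrine cells. Stx1a, a syntaxin of conventional synapses, stood at 91.3 CPM in Mettl14-cKO and 89.4 CPM in control ganglion cells, at 40.8 CPM in Mettl14-cKO and 42.9 CPM in control amacrine cells, and at 3.09 CPM in Mettl14-cKO and 3.63 CPM in control rods. Rods and cones did not differ beyond their counting intervals for Stx3 in either library. Among synaptotagmins, Syt2 was highest in horizontal cells, at 152 CPM in Mettl14-cKO and 190 CPM in control, and stood at 0.643 CPM in Mettl14-cKO and 0.735 CPM in control rods. Syt1, the main fast calcium sensor of forebrain synapses, peaked in amacrine cells at 1978 CPM in Mettl14-cKO and 1934 CPM in control. Sv2b, a vesicle glycoprotein, stood at 221 CPM in Mettl14-cKO and 255 CPM in control rods against 14.0 CPM in Mettl14-cKO and 23.8 CPM in control amacrine cells. Sv2c, its relative, was nearly absent from rods, at 1.03 CPM in Mettl14-cKO and 0.735 CPM in control, and stood at 55.5 CPM in Mettl14-cKO and 53.8 CPM in control ganglion cells. Nrxn3, a neurexin, was highest in bipolar cells, at 860 CPM in Mettl14-cKO and 709 CPM in control, and Nrxn2 in amacrine cells, at 570 CPM in Mettl14-cKO and 459 CPM in control.

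**Figure D1:**
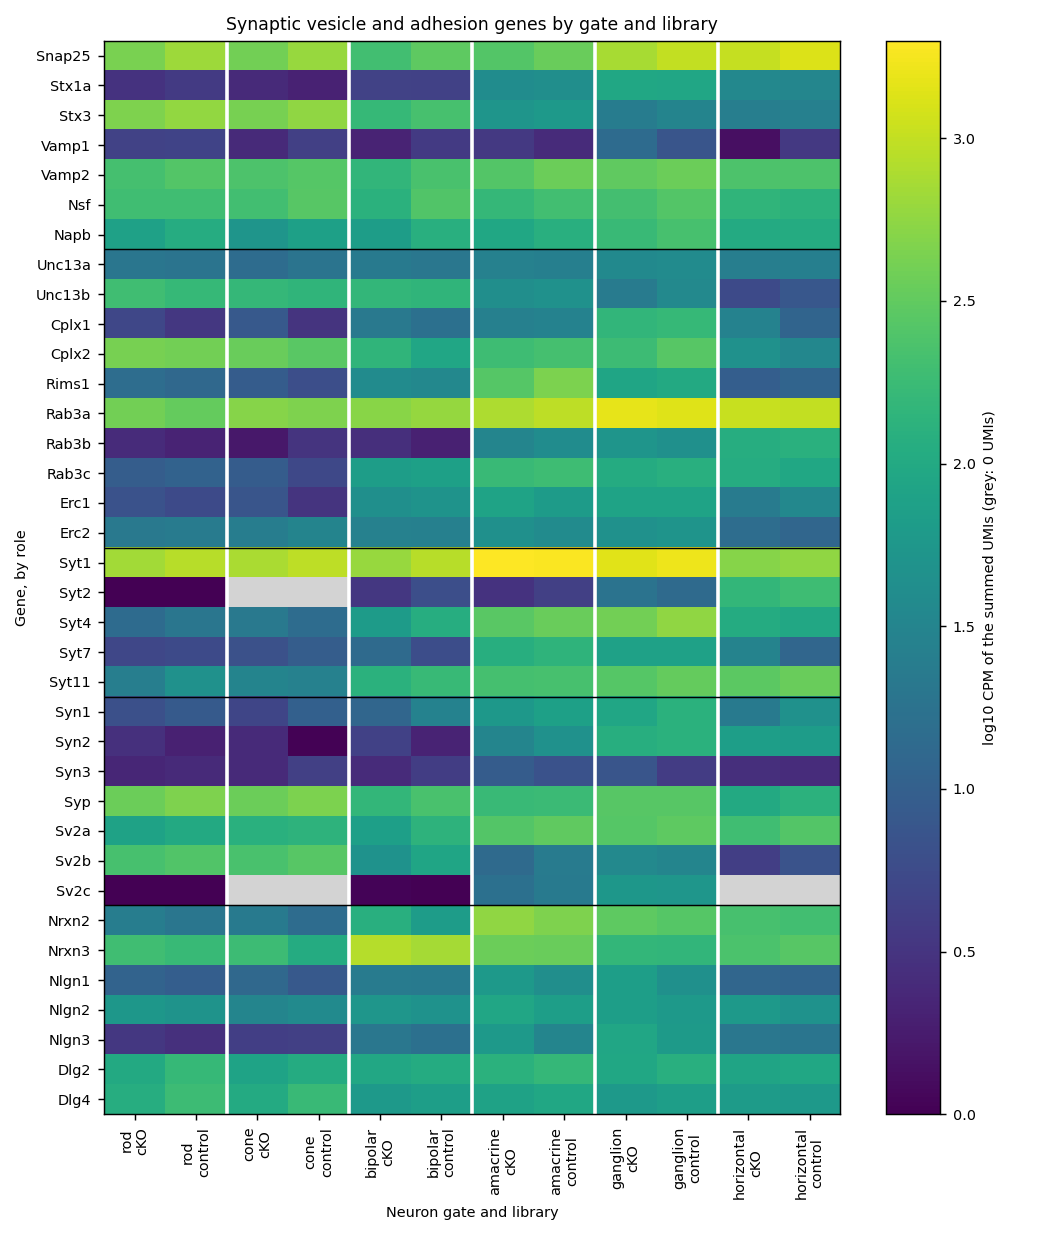
Level of each of the 36 genes (rows, grouped by role) in the rod, cone, bipolar, amacrine, ganglion and horizontal gates (columns, Mettl14-cKO left of control), as log10 of CPM of the summed UMIs. Grey marks 0 UMIs, and levels under 1 CPM take the darkest colour. Stx3 is bright in rods, at 464 CPM in Mettl14-cKO and 577 CPM in control, and dim in amacrine cells, at 52.9 CPM in Mettl14-cKO and 61.1 CPM in control.

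Promoter windows are shown for 5 members: the 4 whose windows hold the photoreceptor motif described next, chosen by that motif, and Syn1, chosen for its ratio between libraries. RefSeq windows on GRCm38.p6, each running from 250 bases before to 50 bases after an annotated transcript start, were found for 29 of the 36 members, 43 windows in all. TAATCC, a core of the site bound by the photoreceptor homeodomain protein Crx, was searched on both strands (GGATTA in reverse). It was in the windows of 4 members, Stx3, Sv2b, Syp and Dlg4, which is 13.8% of the 29. It was in 11.6% of the 43 member windows and in 7.06% of all 32851 windows. In control, 7 members had a level in rods above that in amacrine cells with intervals apart: Sv2b at 10.7-fold, Stx3 at 9.45-fold, Unc13b at 3.55-fold, Syp at 2.57-fold, Dlg4 at 2.0-fold, Snap25 at 1.89-fold and Cplx2 at 1.86-fold. Windows were found for 6 of these 7, and 4 of the 6 hold TAATCC, against 0 of the 23 other members with a window. This relation was noticed after the levels had been seen, so it is given as a description only. Sv2b had 4 windows and Dlg4 had 3, against 1 each for Stx3 and Syp. A gene with more windows has more chances of a match, and the counts by gene do not allow for that. The Sv2b window shown lies inside the gene (chromosome 7, 75114894 to 75309262, minus strand) and not at its 5′ end. The windows below are written 5′ to 3′ with the TAATCC or GGATTA match in capitals, at base 281 in Stx3 (chr19:11819354-11819653, minus strand), base 5 in Syp (chrX:7638330-7638629, plus strand), base 232 in Dlg4 (chr11:70016953-70017252, plus strand) and base 160 in Sv2b (chr7:75302560-75302859, minus strand), counted from 1 at the 5′ end.
Stx3: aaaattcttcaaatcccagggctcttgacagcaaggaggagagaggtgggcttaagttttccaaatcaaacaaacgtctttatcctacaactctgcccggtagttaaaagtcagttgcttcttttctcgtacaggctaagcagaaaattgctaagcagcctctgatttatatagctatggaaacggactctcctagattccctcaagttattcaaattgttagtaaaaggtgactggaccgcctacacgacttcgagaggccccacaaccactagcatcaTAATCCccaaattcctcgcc
Syp: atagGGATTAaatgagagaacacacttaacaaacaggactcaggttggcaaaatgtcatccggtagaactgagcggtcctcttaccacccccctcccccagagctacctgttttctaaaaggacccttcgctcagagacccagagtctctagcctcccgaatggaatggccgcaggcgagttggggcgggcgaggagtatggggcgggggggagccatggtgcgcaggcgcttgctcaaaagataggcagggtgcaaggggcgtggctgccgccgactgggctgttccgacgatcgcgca
Dlg4: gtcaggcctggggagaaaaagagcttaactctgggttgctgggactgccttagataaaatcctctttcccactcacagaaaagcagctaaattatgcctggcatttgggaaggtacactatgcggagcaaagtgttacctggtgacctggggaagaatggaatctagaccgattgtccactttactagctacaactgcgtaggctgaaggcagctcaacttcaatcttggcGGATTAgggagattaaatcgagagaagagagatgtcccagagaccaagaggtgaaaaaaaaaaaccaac
Sv2b: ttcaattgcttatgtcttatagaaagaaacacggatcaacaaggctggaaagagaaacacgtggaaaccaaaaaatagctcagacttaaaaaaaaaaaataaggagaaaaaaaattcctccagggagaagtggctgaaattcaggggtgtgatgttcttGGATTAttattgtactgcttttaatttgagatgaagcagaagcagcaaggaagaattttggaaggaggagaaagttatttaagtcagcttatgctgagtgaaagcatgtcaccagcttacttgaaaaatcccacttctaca
Syn1 had the lowest ratio of any member in the bipolar gate, and its window (chrX:20920869-20921168, minus strand) holds TCAGCACC at base 20, a core of the element bound by the neuronal repressor REST, and TGACGTCA at base 92, the cyclic AMP response element, both in capitals and found by a search of both strands. TCAGCACC was in the windows of 3 members (Nlgn1, Syn1 and Unc13a) and in 1.65% of all windows, and TGACGTCA in that of Syn1 alone among the members and in 1.79% of all windows.
Syn1: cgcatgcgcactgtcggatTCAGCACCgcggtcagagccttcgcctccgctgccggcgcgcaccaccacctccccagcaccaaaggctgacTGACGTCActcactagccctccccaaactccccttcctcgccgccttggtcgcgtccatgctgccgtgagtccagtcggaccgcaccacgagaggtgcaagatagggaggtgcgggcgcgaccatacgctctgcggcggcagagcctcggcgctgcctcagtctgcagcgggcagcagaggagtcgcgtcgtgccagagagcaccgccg

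Most pairs of gene and gate did not pass a size rule for a difference between libraries. The rule called a gene if the larger level was at least 1.5-fold the smaller, the 95% Poisson intervals were apart, and both libraries together gave at least 30 UMIs. Of 216 pairs of gene and gate, 190 had that many UMIs, and 21 passed, 15 lower (7.89%) and 6 higher (3.16%). Over all genes 5.32% of pairs with enough UMIs were lower and 6.8% higher. At the shares of all genes in each gate, 190 such pairs would hold 21.9 calls, 9.54 lower and 12.4 higher, so the total of 21 stood at its background. These fell on 18 of the 36 genes, and 18 genes passed in no gate. Snap25, Sv2b and Dlg4 passed in more than 1 gate. Thinning every cell to 1000 UMIs ended the calls of Snap25, Dlg4 and Syt11 in rods and of Snap25 and Dlg4 in cones. It also ended those of Syn1, Syt7 and Vamp2 in bipolar cells, Rims1 in amacrine cells and Nlgn1 in ganglion cells. Gating with every other marker, odd- or even-numbered, ended the calls of Dlg4 in cones and of Nlgn3 and Sv2b in amacrine cells. In bipolar cells it ended those of Sv2b, Cplx2, Syt7 and Vamp2. Direction was kept in all of these alternatives.

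Bipolar cells had the most members past the rule. There 7 of 34 members were lower and 3 higher, where 8.57% of all 11522 genes with enough UMIs were lower and 9.49% higher. In rods 4 of 35 were lower and 0 higher, beside 8.78% and 9.41% of all genes, so the lower count stood near its background and the higher count below it. In cones 2 of 21 were lower and 1 higher, beside 3.37% and 4.31%. In amacrine cells 2 of 36 were lower and 1 higher, beside 4.37% and 7.63%. In ganglion cells 0 of 36 were lower and 1 higher, beside 1.94% and 3.57%, and in horizontal cells 0 of 28 passed in either direction, beside 2.04% lower and 3.3% higher. Over all kept barcodes without gating 7 of 36 were lower and 1 higher, beside 9.39% and 11.7%, and over the 6 neuron gates summed 1 of 36 was lower and 3 higher, beside 7.87% and 10.6%. In neurogenic cells, gated by markers of cells leaving the cycle, 4 of 29 were lower and 0 higher, beside 4.98% and 6% of all genes. The median log2 ratio of the members, Mettl14-cKO over control, was -0.20 in bipolar cells (all genes -0.04), -0.10 in rods (all genes -0.07), -0.29 in cones (all genes -0.03) and -0.18 in amacrine cells (all genes 0.03). It was -0.10 in ganglion cells (all genes 0.00) and -0.02 in horizontal cells (all genes 0.02).

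**Figure D2:**
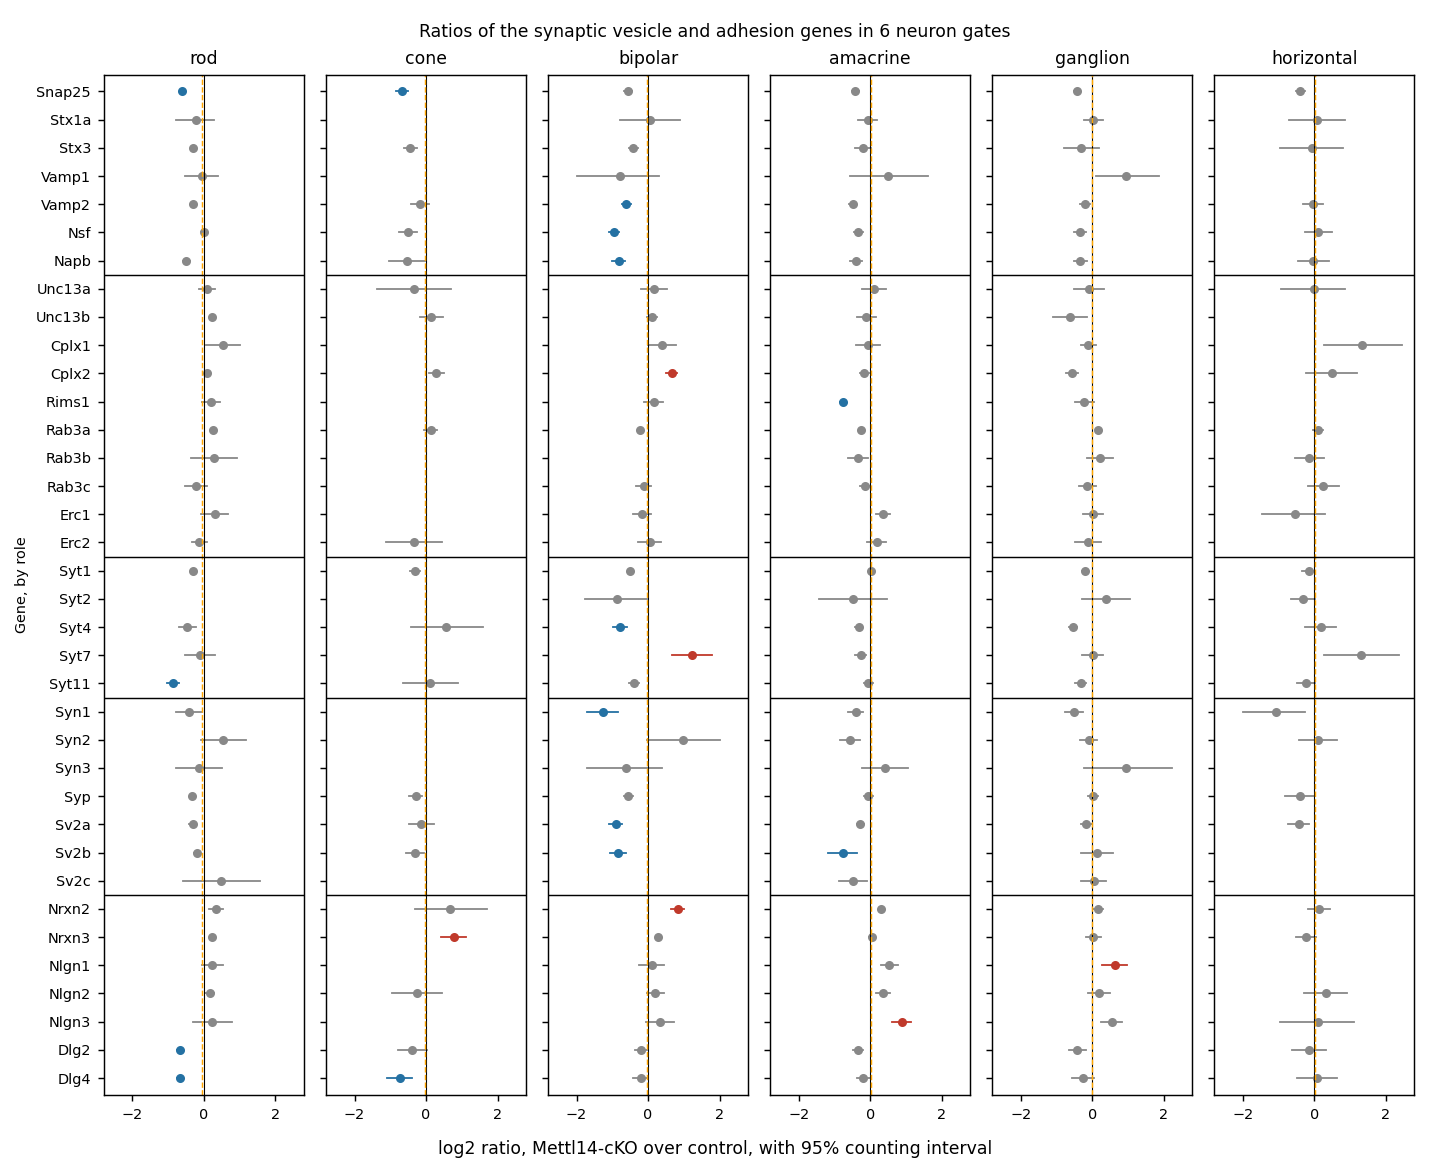
Log2 ratio of CPM, Mettl14-cKO over control, for each of the 36 genes (rows, by role) in each neuron gate (panels), with the 95% counting interval as a line. Blue marks genes lower and red genes higher by the 1.5-fold size rule, grey the rest, and the dashed line the median of all genes. The bipolar panel holds 7 blue and 3 red points, the horizontal panel 0 of either.

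Snap25 stood lower in Mettl14-cKO in all 6 neuron gates, and 3 of the 7 SNARE genes fell in bipolar cells, where 8.57% of all genes were lower. Snap25 (chromosome 2, 136713453 to 136782428, plus strand, GRCm38) encodes a plasma membrane SNARE of most neurons. It stood at 427 CPM in Mettl14-cKO rods (95% Poisson interval 417 to 438) against 657 CPM in control rods (646 to 667), a log2 ratio of -0.62. In cones it stood at 391.5 CPM in Mettl14-cKO (357 to 428) against 622 CPM in control (574 to 674), a log2 ratio of -0.67. These are the gates in which Snap25 fell past 1.5-fold. In the other 4 gates the intervals were also apart, with log2 ratios of -0.57 in bipolar, -0.42 in amacrine, -0.43 in ganglion and -0.40 in horizontal cells. In Müller glia, where a low level of neuronal RNA marks the background, Snap25 stood at 54.0 CPM in Mettl14-cKO and 59.4 CPM in control with overlapping intervals. The rod call was lost when libraries were scaled by the median of ratios (log2 -0.55) and when cells were thinned to 1000 UMIs (log2 -0.58).

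The SNARE genes that fell in bipolar cells were Nsf, Napb and Vamp2, and the median log2 ratio of all 7 there was -0.61. Nsf (chromosome 11, 103821782 to 103954056, minus strand), the ATPase that takes spent SNARE bundles apart, stood at 130 CPM in Mettl14-cKO (120 to 141) against 250.9 CPM in control bipolar cells (240 to 262), a log2 ratio of -0.95. Napb, its adaptor β-SNAP, stood at 68.9 CPM in Mettl14-cKO against 121 CPM in control (log2 -0.82), and Vamp2, the main vesicle SNARE, at 150 CPM in Mettl14-cKO against 228 CPM in control (log2 -0.61). Vamp2 lay at the edge of the rule and lost its call in 6 of 11 alternatives, whereas Nsf and Napb kept theirs in all 11. In rods Nsf stood at 195 CPM in Mettl14-cKO and 196 CPM in control, and the interval of its log2 ratio ran from -0.07 to 0.06. Napb in rods stood at 78.4 CPM in Mettl14-cKO against 111 CPM in control, a log2 ratio of -0.50 that missed the fold. All 7 SNARE genes had ratios below 1 in rods and 6 of 7 in amacrine cells, with medians of -0.29 and -0.34. The medians of all genes were -0.07 in rods and 0.03 in amacrine cells. Of the 7, 1 was lower by the rule in rods and 0 in amacrine cells, beside 8.78% and 4.37% of all genes. The share of all genes with a ratio below 1 was not counted.

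In bipolar cells the vesicle proteins had a median log2 ratio of -0.72 over the 6 measured, and 3 of the 6 fell, beside a median of -0.04 and 8.57% lower for all genes. Syn1, synapsin 1, which tethers vesicles to each other, stood at 12.2 CPM in Mettl14-cKO (9.26 to 15.8) against 29.4 CPM in control bipolar cells (25.7 to 33.4), a log2 ratio of -1.27. Sv2a, a vesicle glycoprotein found at most synapses, stood at 72.5 CPM in Mettl14-cKO against 135 CPM in control (log2 -0.90), and Sv2b at 48.3 CPM in Mettl14-cKO against 86.0 CPM in control (log2 -0.83). Syp, synaptophysin, the most abundant vesicle membrane protein, stood at 152 CPM in Mettl14-cKO (141 to 163) against 223 CPM in control (212 to 233), with a log2 ratio of -0.55 that missed the fold although the intervals were apart. Syn1 had a ratio below 1 in all 5 gates with enough UMIs, from -1.27 to -0.41 on the log2 scale. Sv2b also fell in amacrine cells, at 14.0 CPM in Mettl14-cKO against 23.8 CPM in control (log2 -0.77), whereas in rods it stood at 221 CPM in Mettl14-cKO against 255 CPM in control (log2 -0.20). Amacrine Sv2b lies in a gate whose rod markers summed to 433 CPM in Mettl14-cKO and 627 CPM in control, and the part of free rod RNA in it was not tested. Sv2a in amacrine cells, the highest vesicle gene there, stood at 260 CPM in Mettl14-cKO against 316 CPM in control, a log2 ratio of -0.28.

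Synaptotagmins moved in both directions. Syt4, a synaptotagmin of large dense-core vesicles, fell in bipolar cells to 65.6 CPM in Mettl14-cKO (58.5 to 73.4) against 113 CPM in control (106 to 121), a log2 ratio of -0.79. Syt7, a slow, high-affinity calcium sensor, rose there to 13.9 CPM in Mettl14-cKO (10.8 to 17.8) against 5.98 CPM in control (4.39 to 7.95), a log2 ratio of 1.22 on 65 UMIs in Mettl14-cKO and 47 in control. Syt7 is mainly an amacrine gene in these data, at 117 CPM in Mettl14-cKO and 140 CPM in control, and amacrine markers in the bipolar gate summed to 229 CPM in Mettl14-cKO and 152 CPM in control. The Syt7 call was lost in 3 of 11 alternatives. Syt11, an atypical member that does not bind calcium, fell in rods to 25.9 CPM in Mettl14-cKO (23.4 to 28.5) against 47.4 CPM in control (44.6 to 50.3), a log2 ratio of -0.87. Syt11 is far higher in Müller glia, where it also fell, to 396 CPM in Mettl14-cKO against 653 CPM in control (log2 -0.72). The part of glial RNA in the rod value was not tested. Syt1 led the group in each of the 6 neuron gates and passed the rule in none of those 6. It stood at 700 CPM in Mettl14-cKO against 870 CPM in control rods and at 750 CPM in Mettl14-cKO against 933 CPM in control cones. Bipolar cells held Syt1 at 626 CPM in Mettl14-cKO against 894 CPM in control. Amacrine cells held it at 1978 CPM in Mettl14-cKO against 1934 CPM in control.

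Cplx2 in bipolar cells and Rims1 in amacrine cells were the priming and active zone genes that passed the rule in a neuron gate. In rods 0 of 10 passed the rule, beside 8.78% of all genes lower and 9.41% higher, and their median log2 ratio was 0.21. In bipolar cells 1 of 9 passed, beside 8.57% of all genes lower and 9.49% higher. The median there was 0.11, beside -0.61 for the SNARE genes and -0.72 for the vesicle proteins. With 10 and 9 genes, these counts stood near the shares of all genes. Rab3a, the main vesicle GTPase of neurons, stood at 394 CPM in Mettl14-cKO and 330 CPM in control rods, at 514 CPM in Mettl14-cKO and 599 CPM in control bipolar cells, at 792 CPM in Mettl14-cKO and 938 CPM in control amacrine cells and at 1526 CPM in Mettl14-cKO and 1357 CPM in control ganglion cells. Its log2 ratio stayed between -0.24 and 0.26 over the 6 gates. The intervals were apart in 2 gates with a ratio above 1 and in 2 gates with a ratio below 1. Unc13b, which encodes a Munc13 priming factor, stood at 193 CPM in Mettl14-cKO and 164 CPM in control rods and at 154 CPM in Mettl14-cKO and 143 CPM in control bipolar cells. Cplx2, complexin 2, was the gene of this group that rose in bipolar cells, to 143 CPM in Mettl14-cKO (132 to 154) against 90.8 CPM in control (84.3 to 97.8), a log2 ratio of 0.66, while in rods it stood at 420 CPM in Mettl14-cKO and 397 CPM in control. The bipolar call was lost in 3 of 11 alternatives, with a log2 ratio of 0.47 at the lowest. These were the quality filter with doublets removed, the even-numbered markers alone, and the gate with rod bipolar cells left out.

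Rims1, a scaffold that links Rab3 on vesicles to calcium channels of the active zone, was the gene of this group that fell in amacrine cells. Rims1 (GRCm38 chromosome 1, 22286251 to 22805994, minus strand) stood at 267 CPM in Mettl14-cKO (254 to 280) against 452 CPM in control amacrine cells (434 to 471), a log2 ratio of -0.76. Starburst amacrine cells, the cholinergic cells of the direction-selective circuit, carried most of these UMIs. Starburst barcodes numbered 60 in Mettl14-cKO and 48 in control, and held 1172 of 1659 amacrine Rims1 UMIs in Mettl14-cKO and 1822 of 2338 in control. Per UMI of their own, starburst cells stood at 3742 CPM in Mettl14-cKO (3531 to 3962) against 5213 CPM in control (4976 to 5458), a log2 ratio of -0.48 that missed the fold. GABAergic amacrine cells without starburst cells stood at 91.7 CPM in Mettl14-cKO against 140 CPM in control, a log2 ratio of -0.61 that passed. Glycinergic amacrine cells had 24 UMIs in Mettl14-cKO and 25 in control, at 82.8 CPM in Mettl14-cKO and 41.2 CPM in control with overlapping intervals. With starburst cells left out, the log2 ratio of the amacrine gate was -0.38, which missed the fold. Rims1 also fell in Müller glia, to 34.1 CPM in Mettl14-cKO against 56.6 CPM in control (log2 -0.73), where 2 of 33 members (Syt11 and Rims1) were lower and 0 higher beside 6.19% and 10.6% of all genes, and stood at 15 CPM in Mettl14-cKO and 13.1 CPM in control rods.

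**Figure D3:**
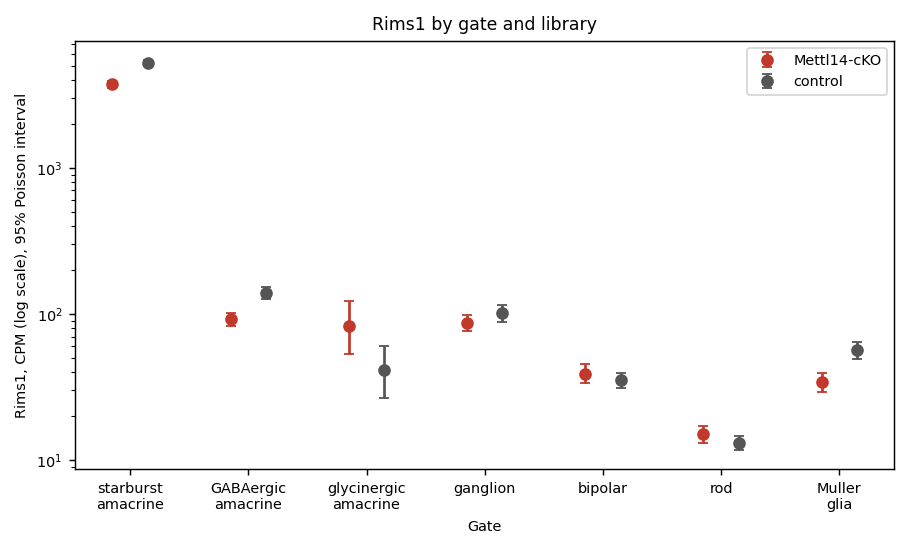
Rims1 level (CPM, log axis) in 7 gates, Mettl14-cKO left of control in each, with 95% Poisson intervals. Starburst cells, at 3742 CPM in Mettl14-cKO and 5213 CPM in control, stand above every other gate shown, and the libraries differ in direction between GABAergic and glycinergic amacrine cells, with overlapping intervals in the glycinergic gate.

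The neurexin and neuroligin genes that passed the rule were all higher in Mettl14-cKO. Nrxn2 (chromosome 19, 6418731 to 6544169, plus strand, GRCm38) rose in bipolar cells to 120 CPM in Mettl14-cKO (110 to 130) against 67.6 CPM in control (61.9 to 73.6), a log2 ratio of 0.83. Its ratio was above 1 in all 6 gates, with intervals apart in 3. Nrxn2 is highest in amacrine cells, and amacrine markers in the bipolar gate summed to 229 CPM in Mettl14-cKO and 152 CPM in control. Their part in the bipolar value of Nrxn2 was not tested. Nrxn3 rose in cones, to 181 CPM in Mettl14-cKO (158 to 207) against 106 CPM in control (86.6 to 129), a log2 ratio of 0.77. It stood at 860 CPM in Mettl14-cKO against 709 CPM in control bipolar cells (log2 0.28). Bipolar markers in the cone gate summed to 373 CPM in Mettl14-cKO and 207 CPM in control. Their part in the cone value of Nrxn3 was not tested. Nlgn3 (X chromosome, 101299168 to 101325963, plus strand), a neuroligin of both excitatory and inhibitory synapses, rose in amacrine cells to 59.2 CPM in Mettl14-cKO (53.3 to 65.5) against 32.1 CPM in control (27.4 to 37.4), a log2 ratio of 0.88. Nlgn1, the neuroligin of excitatory synapses, rose in ganglion cells to 70.2 CPM in Mettl14-cKO (60.9 to 80.4) against 45.6 CPM in control (37.3 to 55.2), a log2 ratio of 0.62. Nlgn1 and Nlgn3 had ratios above 1 in all gates with enough UMIs, 4 for Nlgn1 and 5 for Nlgn3. Nlgn2, the neuroligin of inhibitory synapses, stood at 91.0 CPM in Mettl14-cKO against 71.2 CPM in control amacrine cells (log2 0.35) and passed in no gate.

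The scaffolds did not follow the adhesion proteins. Dlg4 (chromosome 11, 70016942 to 70047522, plus strand), which encodes PSD-95 and is known to sit in photoreceptor terminals on the presynaptic side, fell in rods to 115 CPM in Mettl14-cKO (110 to 120) against 184 CPM in control (179 to 190), a log2 ratio of -0.68. It fell in cones to 105 CPM in Mettl14-cKO (87.3 to 125) against 175 CPM in control (149 to 203), a log2 ratio of -0.74 that was lost when cells were thinned and with the odd-numbered markers alone (log2 -0.33 at the smallest). Dlg2, which encodes PSD-93, fell in rods to 102 CPM in Mettl14-cKO against 163 CPM in control, a log2 ratio of -0.67 that held in all 10 alternatives. In bipolar cells Dlg4 stood at 61.8 CPM in Mettl14-cKO and 71.5 CPM in control and Dlg2 at 94.6 CPM in Mettl14-cKO and 108 CPM in control, with overlapping intervals for both. Rod markers in the cone gate were lower in Mettl14-cKO too, and their part in the cone values of Dlg4 and Snap25 was not tested.

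Other members, and the main vesicle genes of ganglion and horizontal cells, passed the rule in none of the gates named next. Syp stood at 278 CPM in Mettl14-cKO and 273 CPM in control ganglion cells. In horizontal cells Rab3a stood at 1055 CPM in Mettl14-cKO and 987 CPM in control, and Sv2a at 195 CPM in Mettl14-cKO against 264 CPM in control, with intervals apart for Sv2a (log2 -0.43). Complexin 1 (Cplx1), the complexin of conventional synapses, stood at 149 CPM in Mettl14-cKO and 160.1 CPM in control ganglion cells. Of the Rab3 relatives, Rab3b stood at 113 CPM in Mettl14-cKO and 124 CPM in control horizontal cells, and Rab3c at 171 CPM in Mettl14-cKO and 191 CPM in control amacrine cells. Erc1 and Erc2, scaffolds of the active zone, had log2 ratios of 0.02 and -0.12 in ganglion cells, and Unc13a, the main Munc13 of brain synapses, -0.10. Vamp1, a vesicle SNARE, stood at 14.3 CPM in Mettl14-cKO and 7.38 CPM in control ganglion cells on 42 Mettl14-cKO and 17 control UMIs, and Syn3, synapsin 3, had 56 Mettl14-cKO and 35 control UMIs in amacrine cells (log2 0.41). The intervals of the 2 libraries overlapped for each of these values except Sv2a. The 26 pairs with fewer than 30 UMIs were 15 in cones, 8 in horizontal cells, 2 in bipolar cells and 1 in rods.

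The bipolar gate was then split by kind of bipolar cell: rod bipolar cells, other ON cells, which respond to light increments, and OFF cells, which respond to decrements. The rod bipolar gate held 79 barcodes in Mettl14-cKO and 435 in control, the gate of other ON bipolar cells 257 in Mettl14-cKO and 291 in control, and the OFF bipolar gate 176 in Mettl14-cKO and 143 in control. Of 26 members with enough UMIs in rod bipolar cells 6 were lower and 1 higher, where 4.42% and 4.95% of all genes were. Of 28 in other ON bipolar cells 11 were lower and 2 higher, beside 5.63% and 5.97%, and of 25 in OFF bipolar cells 7 were lower and 1 higher, beside 5.13% and 5.02%. The median log2 ratio of the members was -0.38 in rod bipolar, -0.30 in other ON and -0.49 in OFF bipolar cells.

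Nsf, Sv2a and Sv2b fell in each of these 3 kinds. Nsf stood at 142 CPM in Mettl14-cKO against 256 CPM in control rod bipolar cells, at 125 CPM in Mettl14-cKO against 199 CPM in control other ON cells and at 144 CPM in Mettl14-cKO against 316 CPM in control OFF cells. Sv2b had log2 ratios of -1.81 in rod bipolar cells, on 8 UMIs in Mettl14-cKO and 172 in control, -1.26 in other ON cells and -0.80 in OFF cells. Vamp2 and Syt4 were lowest in OFF cells, with log2 ratios of -1.16 and -1.36, and Napb with -1.06. Syp fell in rod bipolar cells (log2 -0.68) and other ON cells (log2 -0.84), and stood at 183 CPM in Mettl14-cKO against 271 CPM in control OFF cells (log2 -0.57). Nrxn2 rose in rod bipolar cells (log2 0.81) and other ON cells (log2 1.13), and stood at 133 CPM in Mettl14-cKO against 83.8 CPM in control OFF cells with overlapping intervals. Cplx2 rose in OFF cells, to 176 CPM in Mettl14-cKO against 83.8 CPM in control (log2 1.07), and stood at 135 CPM in Mettl14-cKO against 122 CPM in control other ON cells. Unc13b fell in rod bipolar cells, to 87.0 CPM in Mettl14-cKO against 183 CPM in control (log2 -1.07), and stood at 120 CPM in Mettl14-cKO against 96.6 CPM in control other ON cells and at 195 CPM in Mettl14-cKO against 175 CPM in control OFF cells. Rims1 rose in other ON cells, to 61.4 CPM in Mettl14-cKO against 30.1 CPM in control (log2 1.03). Amacrine markers summed to 243 CPM in Mettl14-cKO and 114 CPM in control other ON cells. In rod bipolar cells they summed to 145 CPM in Mettl14-cKO and 128 CPM in control. Their part in the Rims1 and Nrxn2 ratios was not tested. Rod markers in the whole bipolar gate summed to 635 CPM in Mettl14-cKO and 922 CPM in control with all 10 detected. The 7 markers of neurogenic cells summed to 645 CPM in Mettl14-cKO and 524 CPM in control with all 7 detected. By kind, rod markers summed to 413 CPM in Mettl14-cKO and 1025 CPM in control rod bipolar cells. They summed to 541 CPM in Mettl14-cKO and 976 CPM in control other ON cells. In OFF cells they summed to 685 CPM in Mettl14-cKO and 1101 CPM in control. The part of these markers in the ratios was not tested. Differences between kinds of bipolar cell could not be tested with 1 library per genotype.

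**Figure D4:**
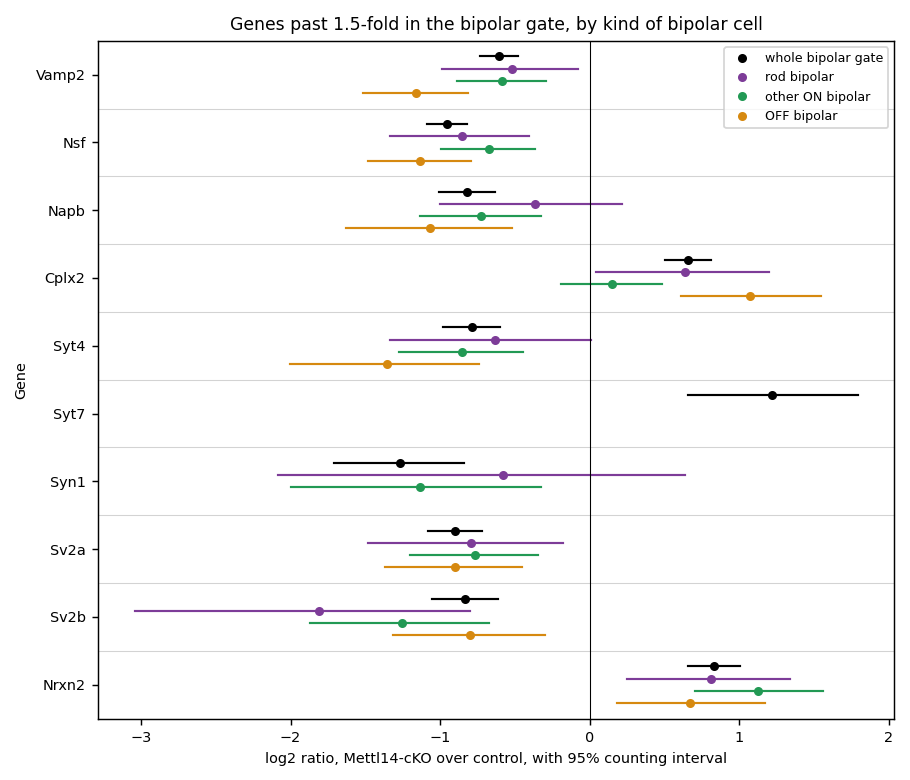
Log2 ratio, Mettl14-cKO over control, of the 10 members past 1.5-fold in the bipolar gate, in the whole gate and in rod bipolar, other ON and OFF bipolar cells, with 95% counting intervals. Kinds with fewer than 30 UMIs of a gene over both libraries are not drawn. Sv2a has log2 ratios of -0.80, -0.77 and -0.90 in the 3 kinds, and Vamp2 is lowest in OFF cells at -1.16.

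Amacrine cells were split in the same way. GABAergic amacrine cells, at 977 barcodes in Mettl14-cKO and 656 in control, had 2 of 34 members lower (Syn2 and Rims1) and 1 higher (Nlgn3), beside 3.52% and 6.85% of all genes. Syn2, synapsin 2, stood at 38.1 CPM in Mettl14-cKO against 58.0 CPM in control there (log2 -0.61), and Nlgn3 at 63.9 CPM in Mettl14-cKO against 33.3 CPM in control (log2 0.94). Glycinergic amacrine cells, at 94 barcodes in Mettl14-cKO and 158 in control, had 2 of 26 lower and 0 higher, beside 3.59% and 4.37%: Vamp2 stood at 204 CPM in Mettl14-cKO against 359 CPM in control (log2 -0.82) and Syt4 at 362 CPM in Mettl14-cKO against 576 CPM in control (log2 -0.67). Starburst cells had 1 of 23 lower, Vamp2, and 0 higher, beside 2.15% and 2.25%: Vamp2 stood at 259 CPM in Mettl14-cKO against 409 CPM in control (log2 -0.66).

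For 5 of these genes the share of cells with a UMI is given after each cell was thinned to 1000 UMIs, a depth that every kept cell reached. Nsf was found in 12.1% of Mettl14-cKO bipolar cells (exact 95% interval 10.2 to 14.2) against 21.5% of control bipolar cells (19.5 to 23.6), and unthinned in 37.0% of Mettl14-cKO against 60.8% of control bipolar cells. In Müller glia the thinned share of Nsf was 3.68% in Mettl14-cKO and 3.03% in control. Median depth was 3509 UMIs in Mettl14-cKO and 4087.5 in control bipolar cells, and 3341 in Mettl14-cKO and 3770 in control Müller glia. Nrxn2 was found in 12.4% of Mettl14-cKO against 5.72% of control bipolar cells (unthinned 36% in Mettl14-cKO and 25.2% in control), where Müller glia had 3.26% in Mettl14-cKO and 2.35% in control. Snap25 was found in 33.1% of Mettl14-cKO against 45.0% of control rods (unthinned 68.1% in Mettl14-cKO and 76.1% in control), where Müller glia had 5.45% in Mettl14-cKO and 5.08% in control. Nlgn3 was found in 6.78% of Mettl14-cKO amacrine cells (5.56 to 8.16), above the 2.55% of Müller glia, and in 2.62% of control amacrine cells (1.76 to 3.74), level with the 2.44% of Müller glia. Its thinned share in rods was lower, at 0.403% in Mettl14-cKO and 0.370% in control. The Müller glia share is therefore not taken as the background of Nlgn3. Syn1 was found in 1.27% of Mettl14-cKO and 2.52% of control bipolar cells, against 0.637% of Mettl14-cKO and 0.684% of control Müller glia, so the Mettl14-cKO share stood close to background.

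Other genes of the vesicle and adhesion pathway, a list of 70, were counted by the same rule against the same shares of all genes. In bipolar cells 14 of 63 were lower and 2 higher, beside 8.57% and 9.49% of all genes. In rods 14 of 66 were lower and 2 higher, beside 8.78% and 9.41%. The median log2 ratios were -0.31 in bipolar cells and -0.26 in rods. In amacrine cells 5 of 66 were lower and 3 higher, beside 4.37% and 7.63%, and in cones 5 of 38 lower and 1 higher, beside 3.37% and 4.31%. In ganglion cells 0 of 63 were lower and 1 higher, beside 1.94% and 3.57%. In horizontal cells 2 of 40 were lower and 0 higher, beside 2.04% and 3.3%. Sncb, β-synuclein, a small protein that binds vesicle membranes, fell in bipolar cells to 168 CPM in Mettl14-cKO against 471 CPM in control (log2 -1.49) and in amacrine cells to 401 CPM in Mettl14-cKO against 769 CPM in control (log2 -0.94). Lrrtm1, a postsynaptic partner of neurexins, fell in bipolar cells to 3.22 CPM in Mettl14-cKO against 14.2 CPM in control (log2 -2.15), and Stxbp5l, a tomosyn that holds syntaxin, to 3.00 CPM in Mettl14-cKO against 13.0 CPM in control (log2 -2.11). Synpr, synaptoporin, fell in rods (log2 -1.25) and in amacrine cells (log2 -0.87), and Rph3a, the Rab3 effector rabphilin, in amacrine cells (log2 -0.84). Syngr3, a synaptogyrin, fell in bipolar cells (log2 -1.37), and Syt5 in amacrine cells (log2 -0.82). The syntaxins Stx2 and Stx4a both fell in rods with log2 ratios of -1.0 at under 8 CPM.

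Genes of that list also rose. Snap47, a broadly expressed relative of Snap25, rose in rods to 91.4 CPM in Mettl14-cKO against 57.3 CPM in control (log2 0.67) and in ganglion cells to 545 CPM in Mettl14-cKO against 351 CPM in control (log2 0.64), while Snap25 fell in rods. Syt6 rose in amacrine cells to 136 CPM in Mettl14-cKO against 67.9 CPM in control (log2 1.0), beside Clstn3, a calsyntenin that binds neurexins, at 27.5 CPM in Mettl14-cKO against 12 CPM in control (log2 1.2), and Lrrtm4, at 31.0 CPM in Mettl14-cKO against 20.5 CPM in control (log2 0.60). Syt14 and Dlg3, a scaffold of the PSD-95 family, rose in bipolar cells with log2 ratios of 0.79 and 0.68, and Syt17 in rods with 0.83. In cones Doc2b, Sh3gl2, Syngr1 and Cadm2 fell, with log2 ratios of -0.97, -0.91, -0.79 and -0.74, and Sh3gl2 and Cadm2 also fell in horizontal cells, with -1.01 and -0.65.

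GGACT, a common form of the motif in which the METTL3 and METTL14 complex methylates adenosine, was counted in the longest protein-coding transcript of each gene in GENCODE release M21. All 36 members had at least 1 copy, with a median of 6 and a range of 1 to 16, beside a median of 3 over 21901 protein-coding genes, of which 87.6% had at least 1. The members' transcripts were longer, with a median of 4974 against 2680 bases, and their density was close to that of all genes, at 0.928 against 1.01 copies per 1000 bases. Snap25, Rab3a and Syt4 had the lowest number, 1 copy each, and Unc13b the highest, 16 in 14754 bases. No m6A measurement was used here, so a copy of the motif is a stretch of letters and not a methylated site.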

How the data were processed

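RNA of dissociated P7 mouse retina was sequenced in 1 Mettl14-cKO and 1 control library. The deposited matrices hold raw UMI counts per gene and barcode, made by the authors with Cell Ranger 6.1.1 on the build mm10, per the file headers and, for both names, the submitters' processing notes. They hold 15319 barcodes with 59856468 UMIs in Mettl14-cKO and 13287 barcodes with 55921787 UMIs in control. From them, barcodes with at least 1000 UMIs were kept, gated with 112 markers in 14 lists, and their UMIs summed per gate and library and scaled to CPM (Python 3.11.15, numpy 2.4.6, scipy 1.17.1, pandas 2.3.3). Levels carry exact 95% Poisson intervals, ratios exact conditional intervals and shares Clopper-Pearson intervals, which cover counting error only. No test was possible between single libraries. UMIs are not independent of the cell they come from, so cells were not taken as replicates.

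Sub-gates needed extra markers: ON bipolar cells at least 2 ON and 0 OFF markers, rod bipolar cells also at least 2 of Prkca, Car8 and Sebox, OFF cells an OFF marker and 0 ON markers, and starburst cells at least 2 of Chat, Slc5a7 and Slc18a3. GABAergic and glycinergic cells were taken from the rest by their own markers. Doublets were left in. Scrublet (scanpy 1.11.5), tried as an alternative, marked 12.0% of Mettl14-cKO and 6.92% of control barcodes. The libraries share 39 kept barcode sequences. The members and gene lists were chosen with earlier results of these data known, and the gating rule was set after the data had been seen. Values are given in full for members past 1.5-fold in a gate with at least 100 UMIs over both libraries, up to 10 a gate, and for the highest member of each role group, and for the 4 other pathway genes with the largest ratios in each direction, of which 1 is not reported here. Alternatives covered scaling, depth and quality filters, thinning, marker lists, gate strictness and the fold. Positions are from GENCODE release M21 and promoter windows from RefSeq, both on GRCm38, and the scripts were tested on simulated data.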

Additional observations from a re-analysis of the deposited data

Results flagged for a closer look

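Rims1 moved in opposite directions in different neuron gates, and the difference between them was not tested. Its log2 ratio, Mettl14-cKO over control, was 1.03 in other ON bipolar cells, on 64 Mettl14-cKO and 39 control UMIs. It was -0.76 in amacrine cells and -0.61 in GABAergic amacrine cells, on 366 Mettl14-cKO and 441 control UMIs. The intervals of both levels were apart in each of these 3 gates. In OFF bipolar cells the log2 ratio was -0.58 with overlapping intervals, and in the whole bipolar gate 0.15. Amacrine markers in the gate of other ON bipolar cells summed to 243 CPM in Mettl14-cKO and 114 CPM in control. Their part in the Rims1 ratio there was not tested.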

How the results depend on the processing

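No paired analysis was possible because each genotype has 1 library. Over the 6 neuron gates, 1761 recomputed ratios of single members kept their direction and their side of the rule or stayed within counting error. A further 27 lost a call, 28 gained 1 and 81 moved past counting error. Of the 21 calls, 0 reversed direction in any setting run for them. A change of direction was not counted for pairs without a call. Nsf, Napb, Nrxn2, Sv2a and Syt4 in bipolar cells, Dlg2 in rods and Nrxn3 in cones kept their calls under every scaling, depth, marker and gate setting run for them. Rims1 in amacrine cells lost its call when thinned, with 4 markers per gate and without starburst cells, its log2 ratio ranging from -1.10 to -0.38 over 11 settings. Thinning to 1000 UMIs per cell left 1 member lower in rods, 0 in cones, 1 in amacrine cells and 1 in ganglion cells, and 2 higher in amacrine and 0 in ganglion cells, and put the horizontal median at -0.32. Thinning leaves fewer UMIs, 2975000 in Mettl14-cKO and 4599000 in control rods. At least 2000 UMIs gave 1 lower in ganglion and 1 in horizontal cells. The quality filter with doublets removed gave 2 higher in amacrine and 1 lower in ganglion cells. Odd-numbered markers gave 1 lower in each of cones, ganglion and horizontal cells, and even-numbered markers 1 higher in bipolar and horizontal cells and 1 lower in amacrine and horizontal cells. A gate of 4 markers gave 1 higher in rods. A gate of 2 markers, chosen after seeing the data, gave 2 higher in amacrine cells, and 2 higher and 1 lower in horizontal cells. The cause of these moves was not tested. A fold of 1.2 gave more calls by its construction: 11 lower and 1 higher in rods, 6 lower in cones, 12 lower in bipolar cells, 11 lower and 5 higher in amacrine cells, 8 lower and 2 higher in ganglion cells, and 2 lower in horizontal cells. A fold of 2 left 0 lower in rods, cones and amacrine cells, 0 higher in cones, amacrine and ganglion cells, and 1 lower and 1 higher in bipolar cells. The share of all genes called was not counted at these other settings. The member counts given for them therefore have no background beside them. No other scaling moved the median of all genes by more than 0.07 on the log2 scale. Shallow gates limit the rest: 28 of 36 members could be compared in horizontal and 21 in cone cells.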

Other observations

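Neurogenic cells, gated by markers of cells that leave the cycle, numbered 855 in Mettl14-cKO and 274 in control. Of 29 members with enough UMIs there, 4 were lower and 0 higher, beside 4.98% and 6% of all genes. Syt4 had a log2 ratio of -1.63, Syt11 of -1.10, Dlg2 of -1.06 and Sv2b of -0.75, all past 1.5-fold with intervals apart. In that gate the 9 Müller glia markers summed to 439 CPM in Mettl14-cKO and 704 CPM in control, and the 7 markers of cycling cells to 48.6 CPM in Mettl14-cKO and 10.3 CPM in control, and their part in these ratios was not tested. When all kept barcodes were summed without gating, Snap25 had a log2 ratio of -0.76, below that of any of the 6 neuron gates, with rods at 22.0% of Mettl14-cKO and 40.3% of control barcodes. With the 6 neuron gates summed, Nlgn3 stood at a log2 ratio of 0.97, Nrxn2 at 0.77, Nlgn1 at 0.65 and Dlg4 at -0.59, in a sum with a different share of each class in each library.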
